A study of Mus musculus with 12 samples.

Results

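The genes examined here are 8 developmental regulators, Eya1, Eya2, Eya3, Eya4, Six2, Six4, Six5 and Dach1, taken by symbol from a table of raw read counts that holds 55573 genes. The genes were chosen by name around Eya2, which was itself selected on its low level after combined inhibitor treatment in these libraries. The question was whether that fall extends to the other 7 genes, called its partners here. RNA-sequencing was performed on tumourspheres, which are spheres grown in suspension from tumour-derived cells, of the mouse spindloid mammary tumour lines A1005, A1129 and A1471. All 3 lines share the genotype MMTV-Metmt;Trp53fl/+;Cre, a mutant Met transgene under the mouse mammary tumour virus promoter together with Cre and a single floxed Trp53 allele, and the DMSO controls carry it too. Each line was exposed for 24 h to DMSO (the vehicle), to 1 µM Crizotinib (a Met kinase inhibitor), to 1 µM PD173074 (an FGF receptor kinase inhibitor) or to both drugs, termed the combination. This gave 12 libraries, with 1 library of each line in each of the 4 treatments (n = 3). Each line stands for a single tumour, so the replicates of a treatment are the 3 lines and not repeated cultures of a line.

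The proteins of the Eya, Six-family and Dach genes form a conserved regulatory network first described in eye development and used again in muscle, kidney, ear and thymus. Six-family proteins are homeodomain factors that bind DNA, Eya proteins bind to them as coactivators and also carry a protein tyrosine phosphatase activity, and Dach proteins bind corepressors and can turn the same target genes off. Eya and Six-family genes are mostly silent in adult mammary epithelium and are expressed again in a share of breast carcinomas.

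Total counts per library ranged from 13031492 to 17750476 (median 14897185.5), and levels are given as CPM, the counts scaled to library size with TMM factors, or, where genes are compared with each other, per kilobase of exon as well (RPKM). A value of 3 counts, the floor used here, corresponds to 0.167 to 0.234 CPM. Of the 13836 genes that passed the filter on low counts and were tested, 6 were members. Six2 and Dach1 were not among them. The spindloid label was checked against markers. The 7 mesenchymal markers, Vim, Zeb1, Zeb2, Twist1, Fn1, Cdh2 and Sparc, summed to between 3336 and 9747 CPM per library. Vim alone held 1903 to 3204 CPM, whereas Cdh2 held at most 6 counts. The 6 epithelial markers, Epcam, Cdh1, Krt5, Krt8, Krt14 and Krt18, summed to between 7.32 and 52.3 CPM, with Krt18 the highest at up to 49.4 CPM. Of 6 markers of skeletal muscle, a tissue that uses Six-family and Eya genes, Myod1 and Myog had 0 counts in all 12 libraries and Ckm and Acta1 at most 9. Des and Pax7 reached 66 and 42 counts, and the 6 summed to at most 3.78 CPM in a library. Libraries from the same line deviated together from the treatment means, and tests were therefore read both without and with a block for the line. The blocked fit compares treatments inside each line, so a constant difference between lines no longer counts as error.

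The low Eya2 level of the combination came with no general fall of its partners. Of the 5 partners that could be tested against DMSO, 0 passed the threshold without the block, with edgeR or DESeq2, and 4 passed it with the block in edgeR. Without the block 1 of the 5, Six5, had an unadjusted p under 0.05 (0.0346, edgeR). Those 4 were 3 genes that rose, Eya1, Eya4 and Six5, and 1 gene that fell, Eya3, by a small amount. Six4 passed in neither fit. Over all tested genes, 14.4% passed without the block (6.1% higher and 8.28% lower) and 54.8% passed with it (28.6% higher and 26.2% lower), so a count of 4 of 5 partners with the block is to be read against a background of more than 1 gene in 2. The test was the quasi-likelihood test of edgeR with Benjamini-Hochberg adjustment over all 13836 genes. Without the block the differences between lines count as error and the intervals are wide, so a count of 0 there does not show that the partners did not change. In bulk RNA of this kind, fewer cells that carry a transcript and less transcript per cell cannot be told apart.

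Eya2 (ENSMUSG00000017897, chromosome 2 of mm10, 165595032 to 165771727, plus strand), a coactivator phosphatase reported to act with Six-family factors in breast cancer cells, was expressed in all 3 lines with DMSO, at 12.1 CPM in A1005, 11.6 CPM in A1129 and 20.1 CPM in A1471. With Crizotinib it stood at 14.7, 15.8 and 23.5 CPM in the same order of lines, above the DMSO library of the same line each time, as were 17.9% of tested genes. With PD173074 it stood at 1.51, 7.94 and 2.56 CPM. All PD173074 libraries were below all DMSO and all Crizotinib libraries, and A1129 kept the most transcript. A separation from DMSO in this direction was found for 3.07% of tested genes. In the combination it stood at 0.778 CPM in A1005 (14 counts), at 0 in A1129 and at 0.226 CPM in A1471 (3 counts). The combination libraries were lower than every other library of the series, where groups separated in this direction for 16.1% of tested genes against DMSO, 16.1% against Crizotinib and 12.7% against PD173074. The mean over lines was 14.6 ± 4.78 CPM with DMSO, 17.99 ± 4.81 with Crizotinib, 4.01 ± 3.45 with PD173074 and 0.335 ± 0.400 in the combination (SD, n = 3 each).

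Because Eya2 was picked for this fall, its values against DMSO are given as a description with no test. The combination held 0.0643 of the DMSO level in A1005 (95% counting interval 0.0344 to 0.111) and 0.0113 in A1471 (0.00231 to 0.0332), and in A1129 the level was at least 61.6-fold lower when the 0 counts are set to the floor of 3 counts (upper end of the counting interval of the ratio 0.0202). With PD173074 alone, A1005 held 0.125 of its DMSO level, A1129 held 0.686 and A1471 held 0.128. A1129 thus kept the largest share with PD173074 and none in the combination. In A1005, the combination held 0.515 of the PD173074 level, with a counting interval of 0.2475 to 1.03. In A1129, where PD173074 left 111 counts, the combination left 0, at least 42.2-fold lower at the same floor (upper end of the interval 0.0296). All such intervals cover counting error only, because each line has 1 library per treatment and the spread between cultures was not measured. Amplified reads that carry no molecular identifier can also be copies of 1 molecule, so the intervals can be too narrow even for counting error.

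PD173074 against Crizotinib is the single comparison of treatments whose fold change uses neither the DMSO nor the combination libraries, and Eya2 was tested in it. The spread behind that test was estimated over all 12 libraries, those on which Eya2 was selected included. Eya2 was lower with PD173074 in 3 of 3 lines and the groups did not overlap, as was the case for 3.32% of tested genes in this direction. The log2 fold change was -2.17 (SE 0.93, 95% interval -4.23 to -0.10, adjusted p = 1, edgeR quasi-likelihood test) and with the block -2.22 (SE 0.58, interval -3.50 to -0.94, adjusted p = 0.0611). Neither fit passed the threshold after adjustment. From the 6 libraries of the 2 groups alone, without the block, the log2 fold change was -2.17 (adjusted p = 0.9998, edgeR). A1129 held 0.503 of its Crizotinib level, against 0.103 in A1005 and 0.109 in A1471. Leaving out A1129, the line with the smallest fall, gave a blocked value of -3.22 (adjusted p = 0.0164, edgeR). That fit was added once the values were known and drops the weakest line, so its pass adds no support. In this comparison 0 of the 13836 genes passed without the block, 444 of them at an unadjusted p under 0.05, and 4.22% passed with it. Of the 5 tested partners, 0 passed in either fit.

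Eya1 (ENSMUSG00000025932, chromosome 1, 14168954 to 14310235, minus strand), the paralog mutated in branchio-oto-renal syndrome, moved the other way. With DMSO it stood at 0.0781 CPM in A1005 (1 count), 0.789 CPM in A1129 (12 counts) and 5.53 CPM in A1471 (80 counts). With Crizotinib it stood at 0, 1.19 and 6.11 CPM, with PD173074 at 0, 2.004 and 14.5 CPM, and in the combination at 0.111, 3.76 and 33.6 CPM. The A1471 library of each treatment was the highest and the A1005 library held at most 2 counts under any treatment, so the treatment groups overlapped although each line exceeded its own DMSO library, as 34% of tested genes did. The ratio of the combination to DMSO was 4.76 in A1129 (95% counting interval 2.54 to 9.73) and 6.08 in A1471 (4.78 to 7.81), and in A1005 both libraries were under the floor. With the block the log2 fold change was 2.41 (SE 0.31, interval 1.71 to 3.11, adjusted p = 0.000162, edgeR), against 2.54 (SE 2.31, interval -2.60 to 7.69, adjusted p = 0.526) without it. The call with the block held when A1005, A1129 or A1471 was left out, with the adjusted p between 0.000322 and 0.0414 (edgeR). Because A1005 held at most 2 counts, the fits without A1129 or without A1471 rest on the other of these lines alone. Those calls are therefore no replication across lines.

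With the FGF receptor inhibitor alone, Eya1 stood between DMSO and the combination in A1129 and A1471. PD173074 gave 2.54 times the DMSO level in A1129 and 2.62 times in A1471, a log2 fold change of 1.29 with the block (SE 0.32, adjusted p = 0.0721, edgeR) that missed the threshold. With Crizotinib alone the ratios were 1.51 (counting interval 0.686 to 3.43) and 1.11 (0.805 to 1.52). The combination exceeded PD173074 alone by 1.12 on the log2 scale with the block (SE 0.29, adjusted p = 0.0117, edgeR), where 39.8% of all tested genes passed, and by 1.18 (SE 2.21, adjusted p = 0.865) without it, where 4.77% passed. Without A1129 or without A1471 this last call with the block was lost (adjusted p = 0.0551 and 0.223).

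Eya4 (ENSMUSG00000010461, chromosome 10, 23102963 to 23350786, minus strand), a paralog whose mutation causes hearing loss and cardiomyopathy, was mainly a transcript of A1129. With DMSO it stood at 2.34 CPM in A1005, 10.2 CPM in A1129 and 0.207 CPM in A1471 (3 counts). It stood at 2.80, 10.8 and 0.0719 CPM with Crizotinib and at 4.53, 12.5 and 0.142 CPM with PD173074. In the combination it stood at 5.17, 16.0 and 0.377 CPM (5 counts in A1471). Each line was higher in the combination, with ratios of 2.21 in A1005 (counting interval 1.45 to 3.45), 1.57 in A1129 (1.28 to 1.93) and 1.82 in A1471 (0.354 to 11.7), and the groups overlapped. The log2 fold change was 0.86 with the block (SE 0.25, adjusted p = 0.0136, edgeR) and 0.75 without it (SE 1.79, adjusted p = 0.839). Leaving out A1005 or A1129 ended the call with the block (adjusted p = 0.112 and 0.0797).

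Eya3 (ENSMUSG00000028886, chromosome 4, 132638987 to 132724765, plus strand), the broadly expressed paralog whose phosphatase acts on histone H2AX after DNA damage, was the most abundant family member in every library. It stood at 68.6, 64.7 and 51.5 CPM with DMSO in A1005, A1129 and A1471 and at 56.5, 55.0 and 43.7 CPM in the combination. The 3 lines held 0.824, 0.849 and 0.849 of their own DMSO level, and 31.9% of tested genes were lower in all 3 lines. With Crizotinib it stood at 69.5, 68.4 and 55.2 CPM and with PD173074 at 59.5, 65.7 and 45.5 CPM, so that the treatments overlapped throughout. The log2 fold change was -0.25 with the block (SE 0.08, adjusted p = 0.0266, edgeR) and -0.25 without it (SE 0.19, adjusted p = 0.426). The call with the block was lost when A1005, A1129 or A1471 was left out (adjusted p 0.0887 to 0.148).

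**Figure D1:**
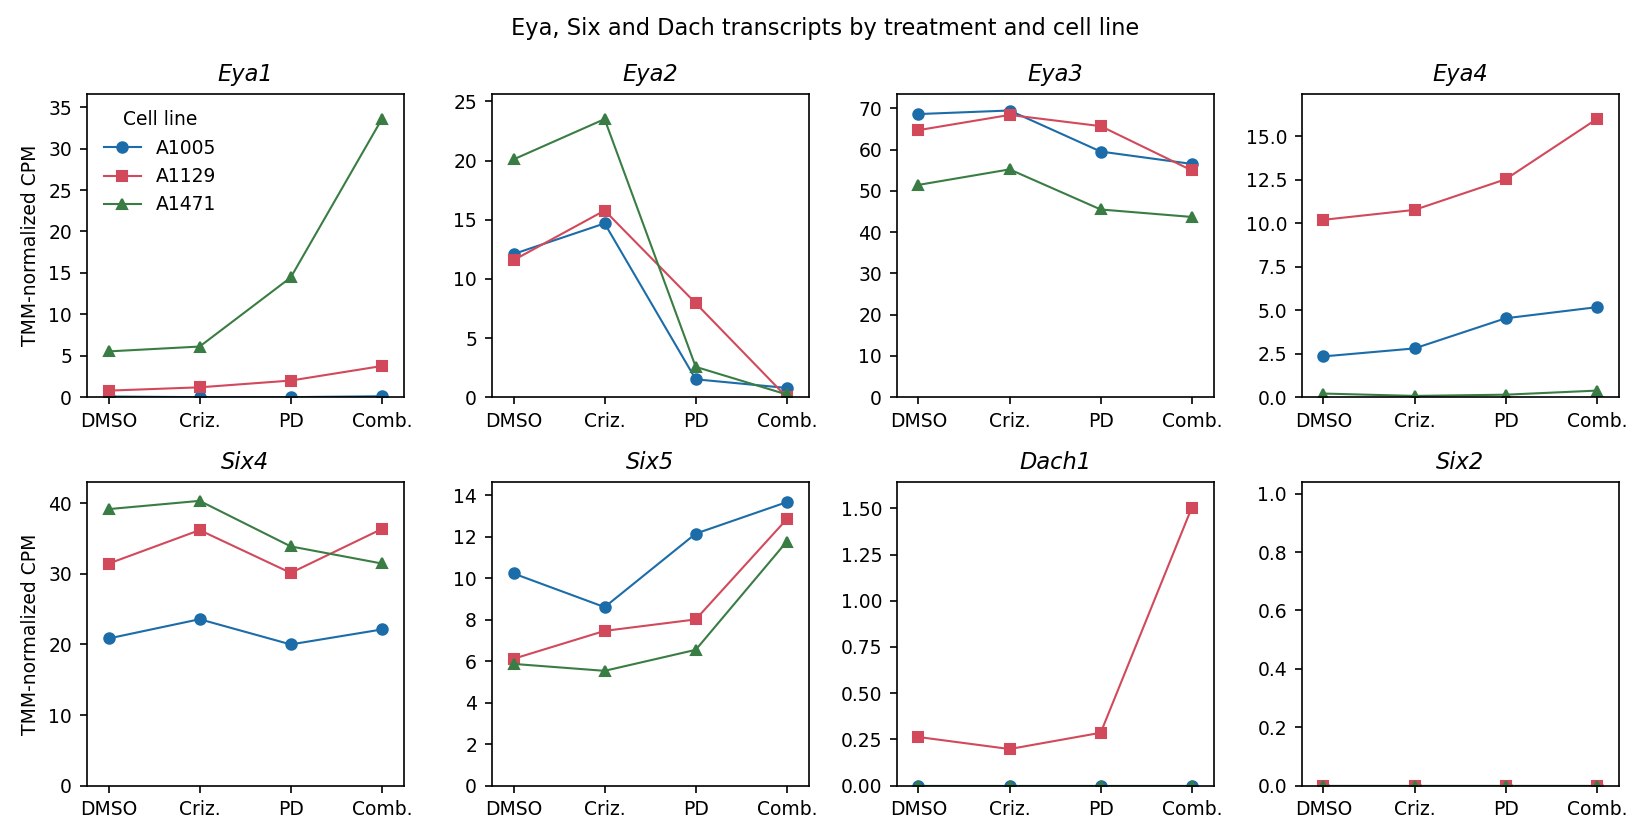
TMM-normalized CPM (linear axes from 0) of the 8 members in each of the 12 libraries, with treatment on the x axis (Criz., Crizotinib; PD, PD173074; Comb., the combination) and a line joining the libraries of each cell line. Eya2 drops to at most 0.778 CPM in the combination, Eya1 rises to 33.6 CPM in A1471, and Six5 stands between 11.8 and 13.7 CPM in the combination. Dach1 has counts in A1129 alone and Six2 lies at 0 throughout.

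Added up per kilobase of exon, Eya1 to Eya4 gave 16.5 to 16.6 RPKM in the DMSO libraries of the 3 lines and 10.8 to 12.2 RPKM in the combination. The make-up of that sum differed between lines. With DMSO, Eya2 made up 24.8% of it in A1005, 23.6% in A1129 and 40.8% in A1471, and in the combination 2.42%, 0% and 0.629%. Eya3 made up 65.9 ± 9.86% with DMSO and 79.3 ± 14.5% in the combination (SD, n = 3). In A1471, Eya1 went from 4.26% of the sum with DMSO to 17.2% with PD173074 and 35.4% in the combination, whereas in A1005 it stayed at or below 0.131%. In A1129, Eya4 went from 6.54% to 14.2%. These shares contain Eya2 and are a description with no test.

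**Figure D2:**
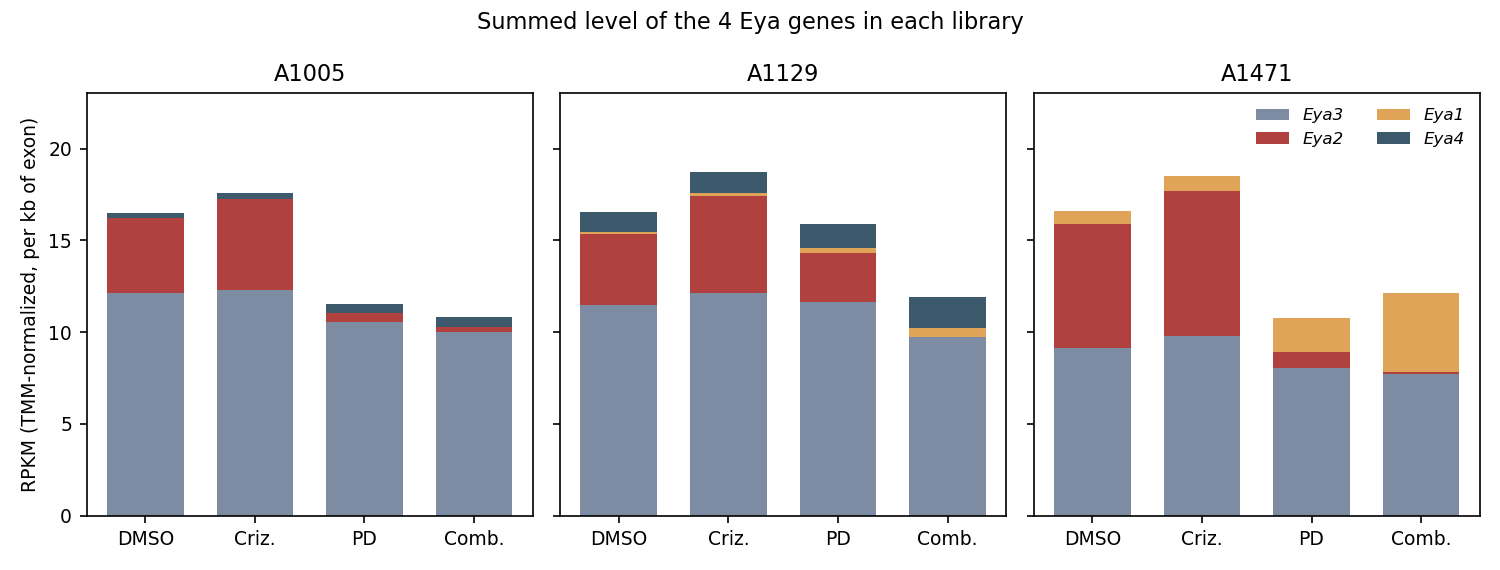
Stacked bars of the RPKM of Eya3, Eya2, Eya1 and Eya4 in each library, for A1005, A1129 and A1471 from left to right (linear axis from 0; 1 library per bar, no error bar). The Eya2 segment is thin with PD173074 in A1005 and A1471 and nearly gone in every combination bar, and Eya1 fills 35.4% of the combination bar of A1471.

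Six5 (ENSMUSG00000040841, chromosome 7, 19094594 to 19098549, plus strand), a homeodomain factor that lies beside the myotonic dystrophy kinase gene, rose in the blocked fit, and its DMSO and combination groups did not overlap. It stood at 10.2, 6.12 and 5.87 CPM with DMSO in A1005, A1129 and A1471, at 8.61, 7.46 and 5.54 CPM with Crizotinib, at 12.15, 8.02 and 6.55 CPM with PD173074, and at 13.7, 12.85 and 11.8 CPM in the combination. All combination libraries were above all DMSO and all Crizotinib libraries, which held for 13.8% of tested genes against DMSO and 13.6% against Crizotinib, while A1005 with PD173074 lay within the range of the combination. The ratios to DMSO were 1.34 (counting interval 1.08 to 1.67), 2.10 (1.64 to 2.71) and 2.01 (1.53 to 2.64). The log2 fold change was 0.83 with the block (SE 0.17, interval 0.44 to 1.21, adjusted p = 0.00254, edgeR) and 0.79 without it (SE 0.32, interval 0.07 to 1.501, adjusted p = 0.136). The call with the block held without each line in turn, with the adjusted p between 0.00427 and 0.0428.

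Six4 (ENSMUSG00000034460, chromosome 12, 73099609 to 73113456, minus strand), a homeodomain factor of muscle precursors, passed in no comparison of treatments. It stood at 20.8, 31.4 and 39.2 CPM with DMSO in A1005, A1129 and A1471, at 23.6, 36.2 and 40.3 CPM with Crizotinib, between 20 and 33.9 CPM with PD173074 and at 22.1, 36.3 and 31.5 CPM in the combination. The groups overlapped in every comparison of treatments. The log2 fold change was -0.02 (SE 0.32, interval -0.73 to 0.68, adjusted p = 0.976, edgeR), and with the block -0.00 with an interval of -0.26 to 0.25 (adjusted p = 0.979). The ratios of the combination to DMSO were 1.06 in A1005, 1.16 in A1129 (counting interval 1.02 to 1.31) and 0.803 in A1471 (0.706 to 0.913). Whether the lines differ in this was not tested, since each line has 1 library per treatment.

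Six2 (ENSMUSG00000024134, chromosome 17, 85684277 to 85688274, minus strand), the factor of kidney progenitors, had 0 counts in all 12 libraries, where the floor of 3 counts allows at most 0.167 to 0.234 CPM. Six3, its neighbour on chromosome 17, and Six6 also had 0 counts throughout. Dach1 (ENSMUSG00000055639, chromosome 14, 97786853 to 98169765, minus strand), the corepressor of the network, was found in A1129 only, with 4 counts with DMSO, 3 with Crizotinib, 4 with PD173074 and 24 in the combination. The ratio of the combination to DMSO in that line was 5.72 with a counting interval of 1.96 to 22.7, and it did not pass the filter on low counts. Its paralog Dach2 had at most 1 count in a library.

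**Figure D3:**
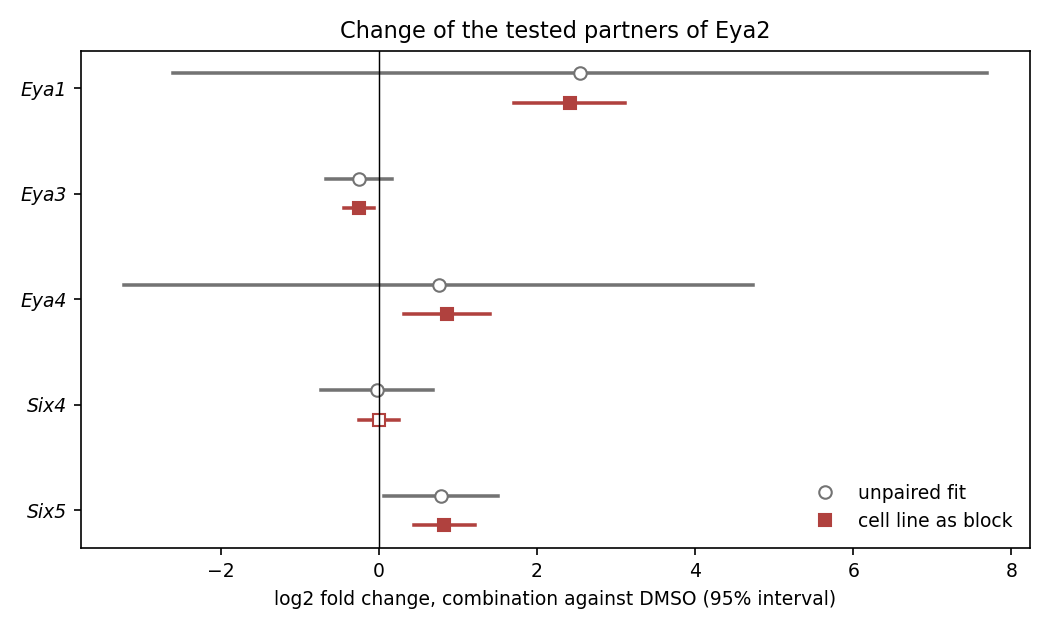
Log2 fold change in the combination against DMSO with its 95% interval (x axis) for the 5 tested partners of Eya2, from the fit without the cell line (grey circles) and with it as a block (red squares). Filled symbols have an adjusted p below 0.05. The block narrows the interval of Eya1 from -2.60 to 7.69 down to 1.71 to 3.11, and Six4 lies at -0.02 and -0.00.

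The combination libraries, in which Eya2 was at or near 0, thus still held at least 22.1 CPM of Six4 and 11.8 CPM of Six5.

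The upstream sequence of the members was searched for motifs of 3 kinds of factor. The RefSeq promoters on GRCm38.p6 cover 6 of the 8 members, and Eya1 and Eya2 are not among those 6. In the 250 bases before each start, both strands were searched for the ETS core CCGGAA and the AP-1 motif TGANTCA, which are bound by factors that act below Met and FGF receptors, and for the overlapping parts TCAGGTT and GGTTTC of the Six-family recognition motif. These letters occur in 12%, 6.75%, 3.49% and 13.4% of 32851 promoters. The only member promoter with an AP-1 match was that of Six5, on chr7:19094294-19094543 (plus strand), 173 bases before the start and upstream of the annotated gene. It is printed 5′ to 3′ with the match in capitals because Six5 was the partner whose combination libraries lay above all DMSO libraries.

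Six5: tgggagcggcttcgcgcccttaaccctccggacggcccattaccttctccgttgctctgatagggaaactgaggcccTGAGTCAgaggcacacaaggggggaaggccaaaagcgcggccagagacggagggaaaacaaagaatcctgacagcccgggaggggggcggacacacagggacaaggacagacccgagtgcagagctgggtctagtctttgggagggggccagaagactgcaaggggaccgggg

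Eya3 held an ETS core 11 bases before its RefSeq start. In 1 of the 2 Six4 promoters both parts of the Six-family motif were joined into a single stretch, 99 bases before its start. This joined form, added to the search once the values were known, occurs in 0.387% of all promoters. That share therefore does not measure how unusual the match is. In the GENCODE annotation the Eya3 and Six4 matches both lie in an exon of a transcript of the gene. Only 30 bases around each match are therefore shown, 5′ to 3′ on the strand of the gene, with the match in capitals. The Six4 letters are the reverse complement of the motif. They are shown because they place a Six-family recognition motif at the start of the Six-family gene whose level did not pass a test of treatment, and the Eya3 letters because Eya3 was the partner that fell.

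Six4, chr12:73113325-73113354, minus strand: tggcctggggGAAACCTGAtcggccagatc
Eya3, chr4:132639016-132639045, plus strand: taggcggtcccgcatctacTTCCGGtggct

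The same Six4 window also held a further GGTTTC match 74 bases and an ETS core 49 bases before the start. The window of a second RefSeq start of Six4 held an ETS core 193 bases before that start and no Six-family part. Eya4, Six2 and Dach1 held none of the 4 motifs in their windows. A match is a run of letters and no measure of binding.

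With treatment in the model, 5 of the 6 tested members differed between the 3 lines (edgeR quasi-likelihood test of the line terms), as did 73.9% of all tested genes, so the count is near the background. Eya1 and Six4 were lowest in A1005, and Eya3, Eya4 and Six5 were lowest in A1471. Eya1 was 8.08 higher on the log2 scale in A1471 than in A1005 and 2.83 higher than in A1129 (adjusted p = 1.01e-07). Eya4 was highest in A1129, with a log2 difference of 1.77 between A1129 and A1005 and of -4.16 between A1471 and A1005 (adjusted p = 1.09e-07). The differences of Six4 (0.63 in A1129 and 0.74 in A1471 against A1005, adjusted p = 0.00017), Six5 (-0.41 and -0.63, adjusted p = 0.00861) and Eya3 (-0.00 and -0.38, adjusted p = 0.00118) were below 1 on the log2 scale. Eya2 did not pass (0.45 and 0.50, adjusted p = 0.638). The 4 libraries of a line are 1 line under 4 treatments, so this test compares these lines and not tumours in general.

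Per kilobase of exon, the order with DMSO was Eya3 at 10.9 ± 1.59 RPKM, Eya2 at 4.92 ± 1.61, Six4 at 2.81, Six5 at 2.46, Eya4 at 0.451 and Eya1 at 0.273 (SD, n = 3), with Dach1 and Six2 last. Eya3 and Eya2 did not overlap with each other or with the genes after them, while Six4 and Six5, at 1.92 to 3.61 and 1.95 to 3.40 RPKM, overlapped, as did Eya4 and Eya1. In the combination the order changed to Eya3 at 9.16, Six5 at 4.24, Six4 at 2.76, Eya1 at 1.599, Eya4 at 0.762 and Eya2 at 0.113 RPKM. Eya1 ranged from 0.0142 to 4.3 RPKM and overlapped all of its neighbours in this order. In A1471 it reached 4.3 RPKM, above the Six4 level of 2.90 RPKM in the same library.

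**Figure D4:**
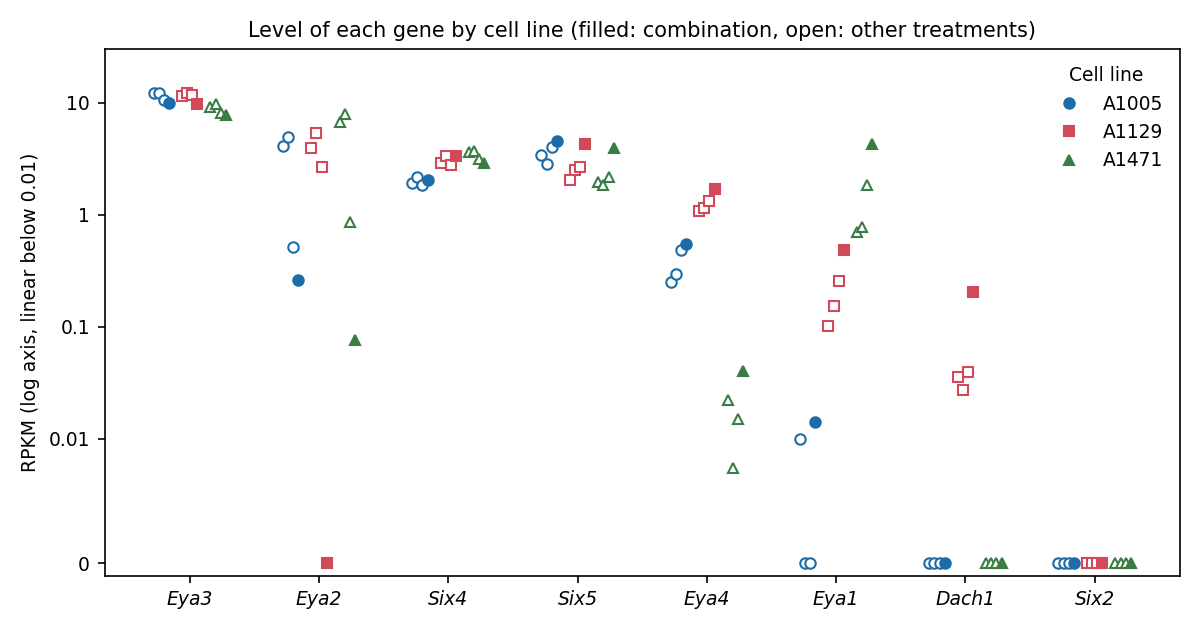
RPKM of the 8 members in each of the 12 libraries by cell line, on a log axis that is linear below 0.01, with the combination filled and the other treatments open. Eya1 is ordered A1471, A1129, A1005 under every treatment, Eya4 is lowest in A1471, and Eya2 is spread by treatment within each line.

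Single inhibitors left the partners without a passing change. Against DMSO, 0 of the 5 tested partners passed with Crizotinib, where 0 of all 13836 genes passed in either fit and 18 had an unadjusted p under 0.05 without the block. With PD173074, 0 of 5 partners passed, where 0 genes passed without the block (307 at an unadjusted p under 0.05) and 2.14% passed with it. In that comparison the log2 fold changes with the block were 1.29 for Eya1, 0.51 for Eya4, 0.27 for Six5, -0.12 for Eya3 and -0.11 for Six4, with adjusted p-values from 0.0721 to 0.69 (edgeR). The combination against PD173074 gave 2 of 5 partners with the block, Eya1 and Six5 (0.56, SE 0.17, adjusted p = 0.0256), both higher, as were 19.6% of tested genes, and 0 of 5 without it. Without A1129 or without A1471 neither passed, and the adjusted p of Six5 was then 0.157 and 0.215. The combination against Crizotinib gave the same 4 partners as against DMSO, with 53.4% of genes passing (27.4% higher and 26% lower), and 0 of 5 without the block, with 13.2%. The comparisons share libraries and are not independent of each other.

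Other genes that work with these families moved in both directions in the combination. Among 12 cofactors, proteins that bind Six-family or Eya proteins or are acted on by the Eya phosphatase, 2 rose and 2 fell without the block, and 6 rose and 4 fell with it, against 14.4% and 54.8% of all tested genes called. The Groucho-type corepressor gene Tle3 rose from 70.7 ± 6.17 to 103 ± 6.02 CPM (log2 fold change 0.54, adjusted p = 0.0115, edgeR) and Gnai2, a G protein alpha subunit that can hold Eya2 outside the nucleus, rose from 415 ± 33.9 to 639 ± 19.8 CPM (0.62, adjusted p = 0.0127). Fzr1, an activator of the anaphase-promoting complex, fell from 59.1 ± 9.64 to 34.2 ± 8.17 CPM (-0.79, adjusted p = 0.0396), and Ppp2r2a, a regulatory subunit of the phosphatase PP2A, fell from 201 ± 53.3 to 92.3 ± 21.3 CPM (-1.12, adjusted p = 0.0217). H2afx, which encodes the histone that Eya phosphatases act on, passed with the block alone (-1.13, adjusted p = 6.79e-05), as did Baz1b, a kinase of the same histone residue (-0.29, adjusted p = 0.0258). The corepressor genes Tle1, Tle2 and Tle4 (0.51, 0.89 and 1.45) rose with the block alone, so that all 4 Tle genes listed were higher. Gnaz (1.71), another G protein alpha subunit that binds Eya2, also rose with the block alone. It held 2 to 45 counts in a library and 0.621 ± 0.610 CPM with DMSO, so its ratio starts near the floor. The median log2 fold change of the cofactors was 0.52, against 0.02 over all tested genes.

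Of 6 genes for corepressor proteins related to or bound by Dach1, 0 passed without the block, and Ski (log2 fold change 0.53, adjusted p = 0.00382, edgeR) and Ncor1 (0.27, adjusted p = 0.0278) rose with it. These 2 of 6 are no larger a share than the 54.8% called over all tested genes. The median of these genes was 0.10. Of 9 Pax genes, which act beside Six-family and Eya genes in organ development, 3 could be tested, and Pax7 alone passed, with the block (-1.92, adjusted p = 0.0314). Pax7 held 0 to 42 counts in a library, and its level of 0.921 ± 1.59 CPM with DMSO came with an SD above the mean. With treatment in the model it was 7.89 higher on the log2 scale in A1129 than in A1005. The call therefore rests mainly on A1129, with 1 library per treatment.

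Of 9 genes described as targets of Six-family factors, alone or with Eya, 7 could be tested, and Ccnd1, the cyclin D1 gene, fell from 996 ± 260 to 25.5 ± 8.37 CPM (log2 fold change -5.29, adjusted p = 4.59e-05, edgeR). With the block, Ezr (ezrin) and Myc fell as well, by 0.84 and 0.90 on the log2 scale, and Gdnf (a neurotrophic factor, 1.53) and Slc12a2 (a chloride cotransporter, 0.99) rose. These calls stand against 14.4% of all tested genes called without the block and 54.8% with it. The targets had a median of -0.00, against 0.02 over all tested genes. That median is the value of Sall1, which held at most 49 counts in a library. The 6 genes of cycling cells that were examined, Mki67, Top2a, Ccnb1, Cdk1, Mcm2 and Pcna, all fell in both fits. Over all tested genes 8.28% fell without the block and 26.2% with it. The summed level of the 6 was 2117 to 2696 CPM with DMSO and 451 to 633.8 CPM in the combination. The members' changes stand beside that fall of cell cycle transcripts, whose part in them was not tested. With PD173074 alone, where Eya2 was at 1.51 to 7.94 CPM, the summed level of these 6 genes was 1893 to 2140 CPM. Their median log2 fold change against DMSO was -0.14 with the block, and the values ran from -0.36 for Top2a to 0.05 for Mcm2. Cdk1 stood at -0.35 with an interval of -0.55 to -0.16 (adjusted p = 0.0749, edgeR). In that comparison 0 of the 6 passed, where 0 of all tested genes passed without the block and 2.14% with it. This count does not show that they did not change, and a link to Eya2 was not tested.

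**Figure D5:**
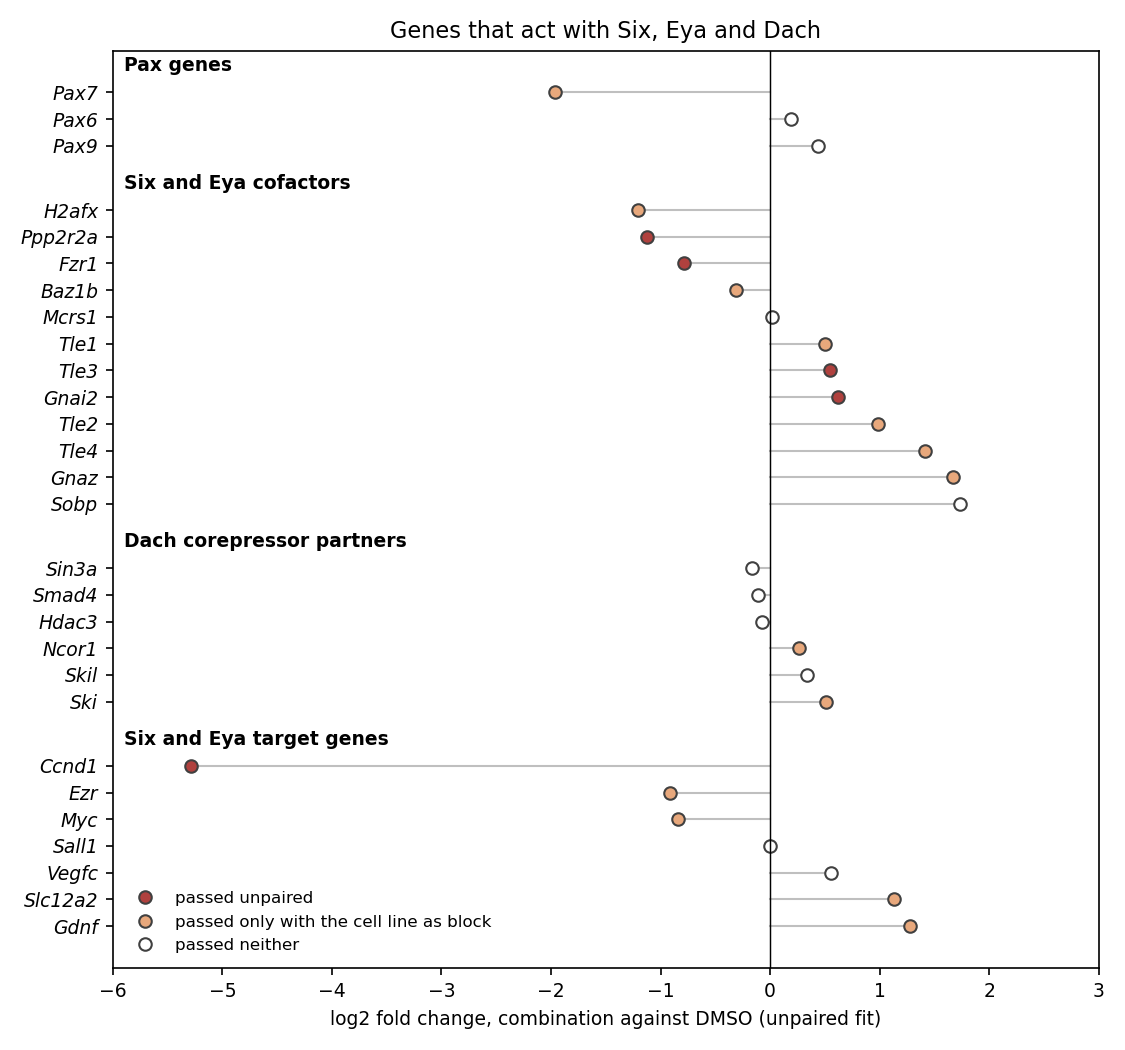
Log2 fold change in the combination against DMSO without the block (x axis) of the tested genes in 4 lists that act with Six-family, Eya and Dach genes. Red symbols passed without the block, orange symbols with the block alone and open symbols in neither fit. Ccnd1 lies at -5.29, and the other genes lie between -1.96 and 1.73.

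Likeness between expression patterns was measured as Pearson's r of log2 CPM over the 12 libraries, after centring within each line, among the 11014 tested genes whose average log2 CPM reached 1. The points share treatments and libraries, and r is a description. The genes most like Eya2 were Ibtk (r = 0.994), Irf8 (0.991), H1fx (0.990), Anxa11 (0.986) and Mrps10 (0.986). Irf8, an interferon-regulatory factor, came closest in size as well, at 31.2 ± 5.28 CPM with DMSO, 35.4 ± 6.41 with Crizotinib, 14.7 ± 7.05 with PD173074 and 3.99 ± 1.52 in the combination (SD, n = 3). The other 4 changed by smaller ratios, as with Ibtk, an inhibitor of Bruton tyrosine kinase, which went from 81.9 ± 17.6 to 55.3 ± 14.1 CPM. Without centring the 5 leading genes were others, Cd44, 2010204K13Rik, Efl1, Stoml2 and Sh3kbp1.

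For the partners the leading genes were Sema6c and Dchs1 for Eya1 (r = 0.971 and 0.970), Peak1 and Polr2e for Eya3 (0.969 and 0.965), Fbrs and Crnkl1 for Eya4 (0.938 and 0.938), St3gal2 and Wdr26 for Six4 (0.953 and 0.940), and Adck2 and Dnajc18 for Six5 (0.988 and 0.982). Among the members themselves, Eya2 had r = 0.949 with Eya3, -0.938 with Six5, -0.832 with Eya1, -0.803 with Eya4 and 0.288 with Six4 (12 libraries). Six5 and Eya1 had r = 0.888 with each other, and both rose in the combination with the block. These values lean on the combination libraries, for which Eya2 was picked. There 54.8% of tested genes were called against DMSO with the block. The r does not measure size, as Eya3 held 0.824 to 0.849 of its DMSO level. A link between these genes was not tested.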

How the data were processed

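RNA-sequencing libraries of 3 cell lines under 4 treatments (12 libraries, n = 3 lines per treatment) were analysed. The authors deposited raw counts of reads for each Ensembl gene. The submitters' processing notes name bcl2fastq, STAR, HTSeq and the build mm10. Versions, strand setting and annotation release are not given in the sources used here, so genes with near-identical copies or antisense partners are uncertain. No member shares exons with another gene in GENCODE vM21, which supplied positions and exon lengths.

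Groups were taken from the sample labels. The members and gene lists were chosen with earlier results of these data known. Low genes were dropped with filterByExpr (the CPM equal to 10 counts in a library of median size, reached in at least 3 libraries, and 15 counts in all), the rest were TMM-normalized and fitted in edgeR 4.0.16 (R 4.3.3) with its quasi-likelihood functions, as 1 unpaired fit over 12 libraries, after the unpaired analysis in the study's methods, and p-values were adjusted by Benjamini-Hochberg and called below 0.05. Tested genes held at least 99.8% of the counts. The cell line was added as a block in a second fit, since libraries with the same replicate number come from the same line. Their deviations from the treatment means had a mean r of 0.871 over 18 pairs (lowest 0.766), against -0.422 over 36 pairs from different lines. Any 2 libraries differed beyond sampling noise (66 pairs, chi-square per degree of freedom at least 4.9). Log2 CPM used a prior count of 2. Alternatives were DESeq2 1.42.0, limma-voom (limma 3.58.1), other scalings and filters, the 2 groups alone, a minimum log2 fold change of 1.5 in either direction and leaving out each line. The block combined with leaving out a line, and the joined Six-family motif, were additions made once the values were known. Named genes were the members, the genes of the lists and, by likeness, the 5 genes nearest to Eya2 and the 2 nearest to each other tested member.

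The fits were tested on simulated data with known changes. Tables and plots were made in Python 3.11.15 (pandas 2.3.3, numpy 2.4.6, scipy 1.17.1, matplotlib 3.10.9). Promoters were those of RefSeq on GRCm38.p6. Some genes of the lists are not reported here.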

Additional observations from a re-analysis of the deposited data

Results flagged for a closer look

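Six4 differed in direction between lines in the combination against DMSO, with ratios of 1.06 in A1005, 1.16 in A1129 and 0.803 in A1471. This contrast of lines was not tested, since each line has 1 library per treatment. The 95% counting interval of the ratio included 1 in A1005 (0.907 to 1.24) and lay above 1 in A1129 (1.02 to 1.31) and below 1 in A1471 (0.706 to 0.913).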

How the results depend on the processing

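The count of partners past the threshold stayed at 0 in all 6 comparisons of treatments without the block, under DESeq2, limma-voom, other scalings and filters, the 2 groups alone and each line left out. These fits keep the differences between lines as error, so the count of 0 is no sign of stability. With the cell line as a replicate block it became 4 for the combination against DMSO, 4 against Crizotinib and 2 against PD173074, and without A1005, A1129 or A1471 in that blocked fit it ranged from 2 to 3, from 2 to 3 and from 0 to 2. The block changed no call of a partner in the other 3 comparisons. Line differences were passed by 3 of 3 members when at least 10 counts were required in every library, a filter that Eya1, Eya2 and Eya4 did not pass. Small values changed sign. Six4 in the combination against DMSO (-0.02) became 0.00125 with DESeq2, 0.00106 with its size factors, 0.0261 with total counts alone, 0.0192 with the stricter filter, between -0.15 and 0.18 with a line left out (0.18 without A1471) and 0.17 without A1471 in the blocked fit. Against PD173074 it lay between -0.00025 (without A1129) and 0.22. With limma-voom, Eya1, Eya4 and Six5 with Crizotinib became -0.48, -0.22 and 0.00091, and Eya1 with PD173074 became -0.0854. Six5 with Crizotinib lay between -0.19 and 0.12 with a line left out, and in the blocked fit 0.11 without A1005 and 0.0012 without A1471, where Eya4 with Crizotinib became -0.0286 without A1005. None of these values passed the threshold, and the cause was not tested. Depth limits Dach1, Six2, Eya1 in A1005 and Eya4 in A1471, which lie near or under the floor of 3 counts.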
